A study of Mus musculus with 2 samples.

Results

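The genes described here are 7 transmembrane adaptors, Scimp, Lat, Lat2, Lax1, Pag1, Sit1 and Lime1, and 2 Src family kinases, Lyn and Fgr. They were read from every gene probe on the array whose RefSeq accession belongs to one of them, which gave 10 probes and 19 spots per array for 9 of the 32448 genes and sequence identifiers read. The 9 genes were selected on the log2 difference between these same 2 arrays, in that the family was built around Scimp after its value was known. Their differences are therefore a description, and no test was applied to them.

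The RNA came from bone marrow-derived macrophages (BMDMs), which are macrophages grown from bone marrow in the growth factor M-CSF. The donors were 8-week-old male mice on the C57BL/6 background carrying floxed Crif1 alleles (Crif1 f/f), and the methods name no Cre for the array RNA. BMDMs were either left untreated or given IL-4, a type 2 cytokine that drives macrophages toward the M2 state, for 18 h. The IL-4 dose and whether the groups came from separate mice or cultures are not given in the sources used here. Each group was 1 Cy3-labelled sample on 1 single-colour Agilent array, so array, culture and IL-4 cannot be told apart, and precision is limited by there being 2 arrays in all.

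Transmembrane adaptors are small membrane proteins with almost no extracellular part and a cytoplasmic tail rich in tyrosines. After a receptor is engaged these tyrosines are phosphorylated, in several adaptors by Src family kinases and in Lat mainly by ZAP-70, and SH2 domain proteins such as Grb2 or the kinase Csk then dock on them. Several adaptors are known best from lymphocytes, whereas Lyn and Fgr are Src kinases much studied in myeloid cells, where they act downstream of Fc receptors and integrins.

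Intensities below are background-subtracted scanner values. Differences are log2 signal in IL-4-treated minus untreated BMDMs after each array was scaled to its 75th percentile. The error given with a difference is the SD of log2 signal between spots, taken from probes of similar signal printed in 10 spots. It covers neither cultures nor labelling. A probe was counted as measured on an array when the scanner software flagged most of its spots as well above background. The shares of the 19743 genes measured on 1 or both arrays that passed 2-fold were 2.86% for genes higher after IL-4 and 4.47% for lower ones. Which direction held more genes depended on the processing, with 827 higher and 564 lower under median scaling and 363 and 270 among genes measured on both arrays. Over the 17242 genes measured on both arrays, the median difference was -0.01 and the SD was 0.43. All 7 macrophage markers that could be matched were measured on both arrays. Csf1r and Adgre1 differed by 0.09 and 0.17, while Cd14, Fcgr1 and Mertk were more than 2-fold lower after IL-4, at -1.42, -1.23 and -1.14. Itgam and Lyz2 were lower by less than 2-fold, at -0.71 and -0.70, and the median of the 7 markers was -0.71. The M2 gene Arg1 was 216-fold higher in the library labelled as IL-4-treated.

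Of the 9 genes, 6 were measured on both arrays and 3 on neither. Scimp and Fgr passed 2-fold upward after IL-4, 0 genes passed it downward, and the other 4 measured genes, Lat, Lat2, Lime1 and Lyn, lay under 2-fold. Because the genes were chosen with this comparison in view, nothing is read from these counts against the shares over all genes. The median difference of the 6 measured genes was 0.14.

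**Figure D1:**
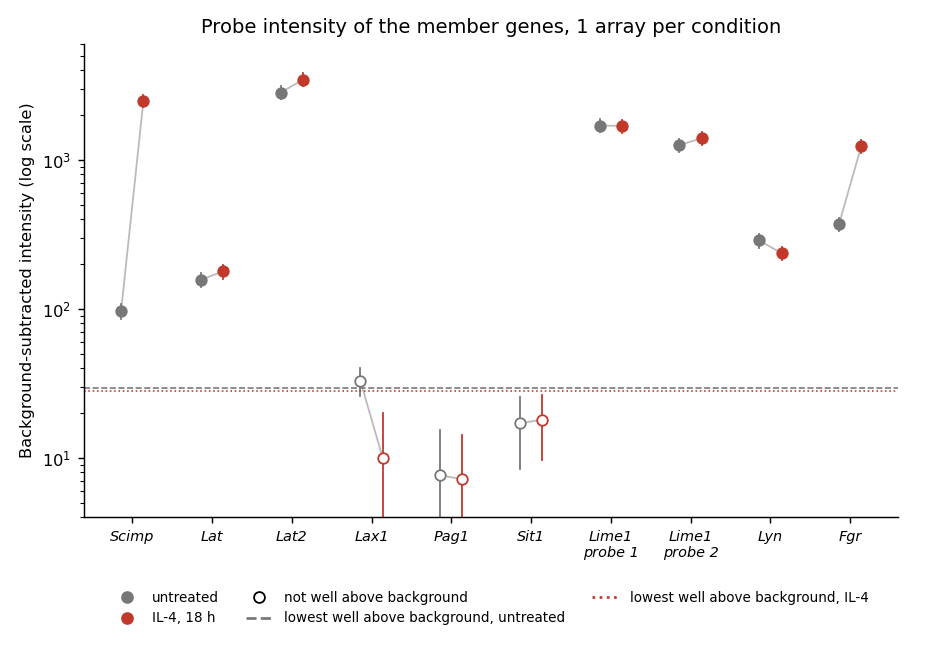
Background-subtracted intensity (log scale) of the 10 probes of the 9 genes on the untreated array (grey) and the IL-4 array (red), 1 array each. Vertical bars are the error that the scanner software estimates for a probe, cut where they leave the axis, open circles are probes not well above background, and the horizontal lines mark the lowest intensity well above background. The Scimp probe goes from 96.9 to 2497, and the probes for Lax1, Pag1 and Sit1 are open on both arrays.

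Scimp is a transmembrane adaptor of antigen-presenting cells that sits in tetraspanin microdomains and binds Lyn through a proline-rich stretch. Its probe gave an intensity of 96.9 in untreated BMDMs and 2497 after IL-4, with an error that the software put at 11.7% of the untreated value and at slightly less after IL-4. The spot passed the flag in both groups and was neither saturated nor an outlier in either. The scaled difference was 4.59 with a spot error of 0.14, which is 24.1-fold higher after IL-4. Before any background was subtracted, the median pixel of the spot read 183.5 and 2943. Under the other settings tried, the difference ran from 3.76 with normexp background correction to 4.91 with spike-in scaling, or from 13.6-fold to 30.2-fold.

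Among the 17242 genes measured on both arrays, Scimp had the fifth highest difference. The genes next above it were Il4i1, a secreted amino acid oxidase, at 6.04, the eosinophil-attracting chemokine Ccl24 at 4.90 and the STAT feedback inhibitor Cish at 4.66. Next below came a transcript known only as ENSMUST00000110529 at 4.44, the JAK inhibitor Socs1 at 4.37 and the transcription factor Batf3 at 4.23. The step from Scimp up to Cish was smaller than the spot error of Scimp, so the order of this pair is not settled. With normexp, Scimp fell to 3.76. The genes next below it stayed higher than that in every setting, at no less than 3.84 for ENSMUST00000110529, 4.02 for Socs1 and 3.87 for Batf3. The rank of Scimp and the order of its neighbours therefore depended on the background correction.

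Fgr is a Src family kinase largely restricted to myeloid cells. Its intensity was 369.5 in untreated BMDMs and 1235 after IL-4, and the probe was measured on both arrays. The difference was 1.64 with a spot error of 0.084, or 3.12-fold higher, and it stayed between 1.44 and 1.97 in every setting tried. Of the genes measured on both arrays, 0.632% had a difference at least as high. The difference of Scimp exceeded that of Fgr by 2.95 on the log2 scale.

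Lyn is the kinase that binds Scimp and that phosphorylates both activating and inhibitory motifs in myeloid and B cells. Its intensity was 287.5 in untreated BMDMs and 236.4 after IL-4. The difference was -0.38 with a spot error of 0.097, or 1.30-fold lower. In the other settings it ranged from -0.44 to -0.06, always below 0, and 12.2% of genes measured on both arrays had a difference as low or lower. The probe was designed to NM_001111096, which is 1 of 2 curated Lyn transcripts, and the other transcript was not read separately. The 2 kinases thus differed from each other by 2.02 in their response, with Fgr above Lyn.

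**Figure D2:**
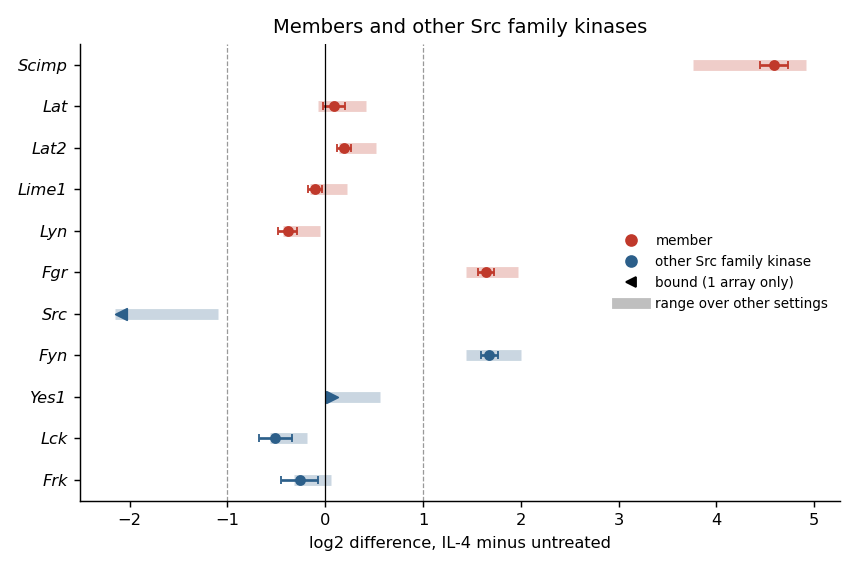
Log2 difference, IL-4 minus untreated, of the 6 measured genes (red) and of other Src family kinases (blue), with the spot error as thin bars, the range over the other settings as pale bars, triangles for bounds and dashed lines at 2-fold. Scimp at 4.59 and Fgr at 1.64 lie beyond the right line, while Lat, Lat2, Lime1 and Lyn lie between the lines with their pale bars.

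Lat2, also called NTAL or LAB, is a Lat-like adaptor found in B cells, mast cells and other myeloid cells. Its probe read 2828 in untreated BMDMs and 3460 after IL-4. The difference was 0.19 with a spot error of 0.071, and it stayed above 0 in every setting, from 0.14 to 0.52. Lat2 was thus slightly higher on the IL-4 array by more than the spot error, far below 2-fold. The difference did not exceed the error of 0.20 that the software's own estimates give over both arrays.

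Lime1, an adaptor first described as a partner of the kinase Lck, had 2 probes, both to NM_023684. The brighter probe read 1697 in untreated BMDMs and 1693 after IL-4, a scaled difference of -0.10 with a spot error of 0.075. The second probe read 1256 and 1399, a difference of 0.06 with a spot error of 0.076. The probes pointed opposite ways, and the difference of Lime1 changed sign in 3 of 12 settings, between -0.16 and 0.22, so no direction is given for it.

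Lat is the adaptor that assembles the signalling complex below the T cell receptor. Its intensity was 156.6 in untreated BMDMs and 178.6 after IL-4. The difference of 0.09 was smaller than its spot error of 0.11 and ranged from -0.07 to 0.42 over the settings, with the sign changed in 1 of 12. Lat was therefore measured in both groups without a difference that exceeds the spot error.

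Beside Lat, some T cell markers were also measured, and the share of T cells in its signal was not tested. Of 8 T cell markers, 5 were measured on at least 1 array. Cd3e read 343.1 in untreated BMDMs and 296.4 after IL-4, whereas Cd3d, Cd3g and Cd8a were not measured on either array. Cd28 read 1271 and 689.9, Cd4 read 511.2 and 547.0, Cd5 read 160.7 and 35.5, and Cd2, measured only in untreated BMDMs, read 34.8 there. The summed intensity of the 8 markers was 2361 in untreated BMDMs and 1598 after IL-4, with Cd28 the brightest, and the difference of Cd4 was 0.00. For B cells, where several of these adaptors are known from, Cd79a, Ms4a1 and Pax5 were measured on neither array, while Cd79b read 472.5 in untreated BMDMs and 394.5 after IL-4 and Cr2 read 51.4 and 51.8. The 5 markers read summed to 597 and 475, most of it Cd79b. The 5 neutrophil markers read were all measured on both arrays and summed to 5887 in untreated BMDMs and 4585 after IL-4. Of 5 mast cell markers, 3 were measured on at least 1 array, and their list summed to 390 and 238. The share of these cells in the signal of the members was not tested. In bulk RNA of this kind, fewer cells of a type and less RNA per cell cannot be told apart.

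For Fgr, Lat and Lime1, RefSeq's table for GRCm38.p6 lists a promoter and both arrays gave a value, so the sequence can be set beside a response. Each stretch runs 5′ to 3′ from 250 bases before the transcript start to 50 after it. The Fgr promoter is chr4:132973845-132974144 on the plus strand, that of Lat chr7:126369519-126369818 on the minus strand, and that of Lime1 chr2:181380985-181381284 on the plus strand. Capitals mark the only motif match in the 3 sequences.
Fgr: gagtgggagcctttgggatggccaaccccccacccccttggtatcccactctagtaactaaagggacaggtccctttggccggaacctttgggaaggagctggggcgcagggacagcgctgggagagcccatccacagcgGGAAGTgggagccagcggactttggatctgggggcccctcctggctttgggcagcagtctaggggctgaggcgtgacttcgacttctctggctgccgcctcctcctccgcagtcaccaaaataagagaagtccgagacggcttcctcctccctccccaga
Lat: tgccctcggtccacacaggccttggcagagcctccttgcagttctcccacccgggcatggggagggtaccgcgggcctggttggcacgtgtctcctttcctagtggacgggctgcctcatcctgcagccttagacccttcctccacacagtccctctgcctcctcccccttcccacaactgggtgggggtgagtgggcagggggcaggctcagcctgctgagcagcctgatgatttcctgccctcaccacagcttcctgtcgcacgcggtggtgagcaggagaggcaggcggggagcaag
Lime1: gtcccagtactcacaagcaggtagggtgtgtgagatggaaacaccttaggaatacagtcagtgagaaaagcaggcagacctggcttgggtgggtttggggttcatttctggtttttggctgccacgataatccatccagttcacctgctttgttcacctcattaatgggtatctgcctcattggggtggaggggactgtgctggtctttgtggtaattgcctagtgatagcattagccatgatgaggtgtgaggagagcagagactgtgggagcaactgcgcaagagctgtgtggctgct

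The motifs below were searched on both strands. TTCNNNNGAA, the spacing that STAT6 prefers, occurs in 6.95% of the 32851 promoters of the table, TTCNNNGAA, the spacing of other STAT factors, in 8.3%, and GGAAGT, a core of ETS factors such as PU.1, in 23.8%. The last motif was added after the sequences had been seen. The Fgr promoter held GGAAGT, starting at position -110 relative to the transcript start, and neither STAT motif. The promoters of Lat and Lime1 held none of the motifs. Of the members not measured on either array, Sit1 had a listed promoter without a match, and Lax1 had 2, of which 1 held TTCNNNNGAA, as TTCTCACGAA starting at position -20. The GC content was 62.7% for Fgr, 65.7% for Lat and 51.0% for Lime1, with 11, 10 and 2 CpG dinucleotides, against medians of 52.7% and 7 over all promoters. A match describes these letters only, and Scimp, Lat2, Pag1 and Lyn had no promoter in the table.

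Lax1 restrains signalling in T and B cells and, unlike most of the family, stays outside lipid rafts. Its probe was printed in 10 spots, so the spread between spots can be read directly. In untreated BMDMs the 10 spots ran from 20.02 to 43.6 with a median of 35.8, and 5 of the 10 were well above background. After IL-4 they ran from 5.70 to 48.0 with a median of 6.96, and 1 of 10 was well above background. The groups of spots overlapped, although 9 of the 10 positions were lower on the IL-4 array. The SD of log2 intensity was 0.36 between the untreated spots and 1.09 between the IL-4 spots. Since no more than 5 of 10 spots passed the flag in either group, and most had to pass, Lax1 gets no fold. When 5 of 10 spots are allowed to count as measured, a rule chosen after these data were seen, Lax1 was at least 1.26-fold lower after IL-4, a bound of -0.34.

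**Figure D3:**
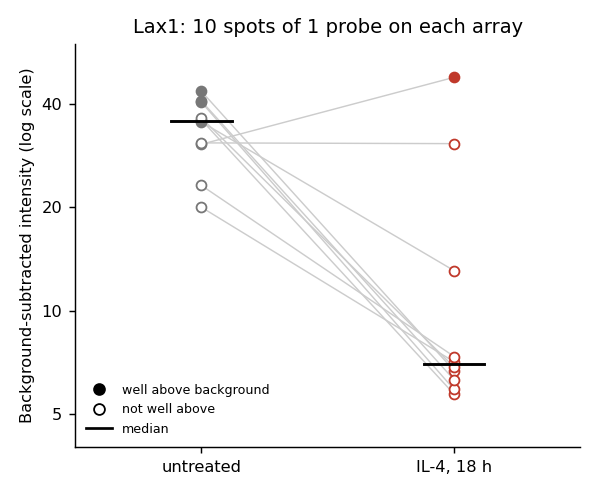
Background-subtracted intensity (log scale) of the 10 Lax1 spots on the untreated and the IL-4 array, with lines joining the same position on both arrays. Filled circles are spots well above background and bars are medians, which are 35.8 and 6.96, and 9 of 10 lines go down.

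Pag1, also called Cbp, anchors Csk in lipid rafts, and Sit1 is a lymphocyte adaptor that binds the phosphatase SHP-2. The single Pag1 spot read 7.64 in untreated BMDMs and 7.16 after IL-4, with an error of about the size of the signal on each array. The Sit1 spot read 17.1 and 18.0 and was above background by the software's weaker flag but not by the stricter one. The dimmest gene probe that passed the stricter flag read 29.2 in untreated BMDMs and 27.9 after IL-4. Both genes were thus below what these probes could measure in either group, which does not show that they were absent.

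**Figure D4:**
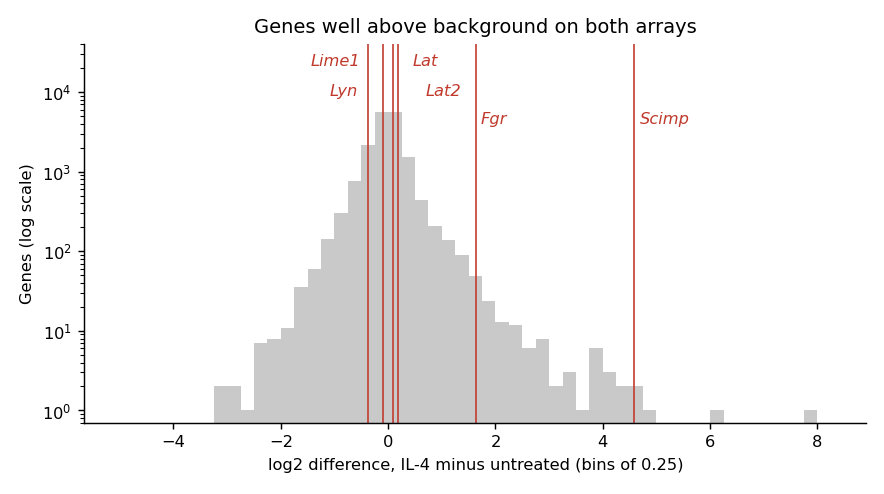
Number of genes (log scale) by log2 difference, IL-4 minus untreated, in bins of 0.25 for the 17242 genes measured on both arrays. Red lines mark, from left to right, Lyn, Lime1, Lat, Lat2, Fgr and Scimp, and Lyn to Lat2 fall in the crowded centre while Scimp lies in the sparse right tail.

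The other genes of the pathway were read from lists made with earlier results of these arrays known, and are given by counts of genes past 2-fold. Of 6 other Src family kinases read here, 5 were measured in 1 or both groups, with 1 past 2-fold upward and 1 downward, and the median of the 3 measured on both was -0.26. Fyn, a broadly expressed member, read 323.3 in untreated BMDMs and 1107 after IL-4, a difference of 1.68, or 3.20-fold higher. Fyn and Fgr therefore had nearly the same difference, apart by less than their spot errors of 0.086 and 0.084. Src itself read 111 in untreated BMDMs and 26.7 after IL-4, where it was not well above background. With the main processing Src was at least 4.26-fold lower, a bound of -2.09. Over the 12 other settings its value ran from -2.15 to -1.09. Src thus stayed past 2-fold lower, but by how much depended on the processing. Lck differed by -0.51 and Frk by -0.26, the latter with the sign changed in 1 of 12 settings. Yes1 was measured only after IL-4, and Blk on neither array.

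All 12 kinases, phosphatases and ubiquitin ligases that set Src kinase activity were measured on both arrays, where 3 were at least 2-fold higher, 0 were lower and the median was 0.15. Matk, the Csk-related kinase that phosphorylates the inhibitory tail of Src kinases, read 3648 in untreated BMDMs and 17945 after IL-4, a difference of 2.20, or 4.59-fold higher. Csk, the general form of that kinase and a docking partner of Scimp and Pag1, read 529.8 and 708.2, a difference of 0.32. The ubiquitin ligase Cblb was 2.31-fold higher and the phosphatase Ptpre 2.15-fold higher. A second, dimmer Cblb probe gave 1.01 beside 1.21. The phosphatase Ptpn22, which binds Csk, had the lowest difference of the list at -0.82, and Ptprc, the CD45 phosphatase that opens Src kinases, was at -0.12, with the sign changed in 2 of 12 settings.

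Of 28 cytosolic adaptors and effectors that dock on phosphorylated tyrosines, 24 were measured on both arrays, 1 was at least 2-fold higher, 0 were lower and the median was 0.00. Dok2, a docking protein that dampens Ras signalling, was 2.64-fold higher at 1.40. Fyb, which links SLP-76 to the cytoskeleton, had the lowest difference at -0.99, and its second probe gave -0.96. Stap1 and Themis2 were at 0.92 and 0.89, and Gab2 at -0.66. In other settings Stap1 reached 1.25, Themis2 1.22 and Fyb -1.045, so the counts past 2-fold in this list depended on the processing. The known partners of Scimp lay under 2-fold. Blnk (SLP-65) differed by 0.14, Lcp2 (SLP-76) by 0.42 and Grb2 by -0.15, the last with the sign changed in 2 of 12 settings.

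Among 7 other transmembrane adaptors, 4 were measured on both arrays and 0 passed 2-fold, with a median of -0.23. These were the ITAM adaptors Tyrobp (DAP12) at -0.28 and Fcer1g, the Fc receptor gamma chain, at -0.18, with Hcst (DAP10) at 0.07 and Prr7 at -0.47. Trat1, Gapt and Cd247 were measured on neither array. Within this wider family of membrane adaptors, Scimp was the only gene past 2-fold, and all the others measured on both arrays lay between -0.47 and 0.19. The family was built around Scimp after its value was known, so its place there is a description only.

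Of 9 Syk, Tec and Fes family kinases, 6 were measured on both arrays and 0 passed 2-fold, with a median of -0.12. Among these 6, Btk was highest at 0.50, and Syk, the kinase that ITAM adaptors recruit, was at -0.13. The brightest Zap70 probe was measured only after IL-4 and gave a bound of 0.92, so a larger difference is possible. The other Zap70 probe gave -0.33. The 12 MHC class II genes and tetraspanins, the membrane proteins among which Scimp resides, were all measured on both arrays and 0 passed 2-fold, with a median of 0.04. Cd151 at 0.50 and Cd37 at -0.41 were the farthest from 0, and a dimmer Cd151 probe gave -0.02.

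Inhibitory receptors carry motifs (ITIMs) that Lyn and Fgr can phosphorylate. Of 12 such receptors, 11 were measured on both arrays, 2 were at least 2-fold higher, 0 were lower and the median was 0.05. Fcgr2b, the inhibitory IgG receptor, was 3.92-fold higher at 1.97, and Cd300a was 2.61-fold higher at 1.38. Cd72, at 0.75, reached 1.08 under another setting, so the counts past 2-fold in this list depended on the processing too. Cd33 was at -0.88. Pilra was at -0.80 on its brightest probe, while its other probes gave -1.06 and -1.26, just past 2-fold lower.

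**Figure D5:**
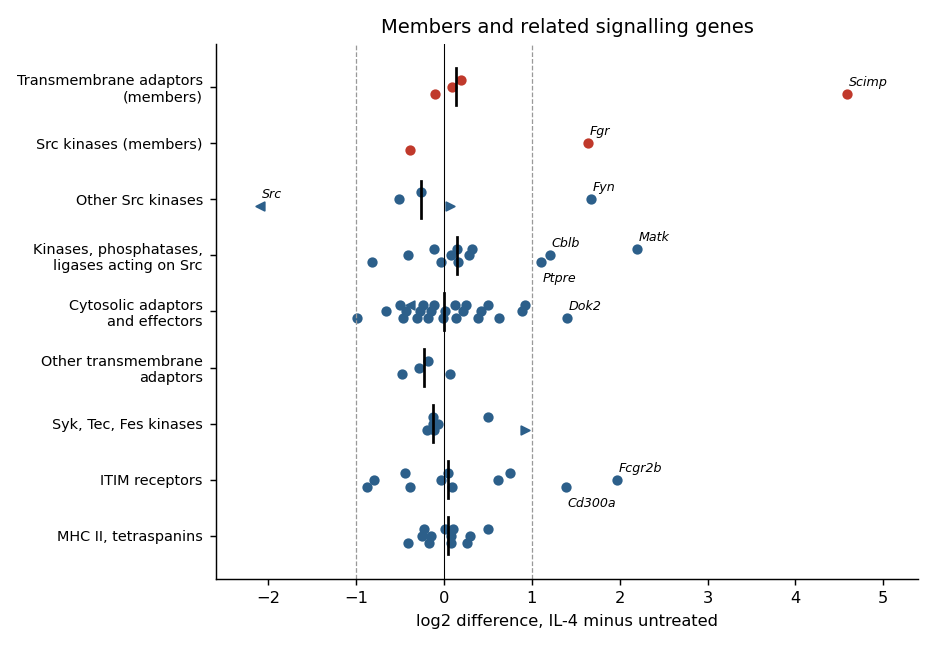
Log2 difference, IL-4 minus untreated, of the 6 measured genes of the 9 (red) and of measured genes in the related lists (blue). Triangles are genes measured on 1 array only, whose value is a bound. Short bars mark the median of lists with over 2 genes measured on both arrays, and dashed lines are at 2-fold. Scimp lies farthest right at 4.59, ahead of Matk at 2.20 and Fcgr2b at 1.97, and Src is the only gene past the left line, as a bound.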

How the data were processed

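Total RNA of untreated BMDMs and of BMDMs given IL-4 for 18 h was labelled with Cy3 and hybridised to 1 Agilent array each. The authors deposited scanner files of Feature Extraction 10.10.1.1, whose spot intensity had background and trends removed within each array but no scaling between arrays. They also deposited log2 values for 39424 probes, with column medians of 0.16 (untreated) and 0.016 (IL-4). Their differences between arrays equalled those of the scaled scanner signal within 0.01, after an offset of 0.000564, for 39422 of these probes. How each probe was centred is not known.

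Control and outlier spots were left out, log2 spot values were averaged per probe, and each array was centred on its 75th percentile. The brightest probe gave the reading of a gene. A probe measured on 1 array gave a bound, for which the other array was set to the probe’s signal there or to the dimmest measured signal, whichever was higher, and a probe measured on neither gave no fold. The spot error is the median SD over probes printed in 10 spots within 1 log2 unit of the probe, combined over both arrays. With 1 array per condition no test was run, and genes past 2-fold were counted. The array design was annotated on mm9. Names came through RefSeq accessions from a GRCm38.p6 table (27229 probes, 20656 symbols), and coordinates only from its promoter sequences. Cd68 and Ly6g were not matched by name. Certain items of the lists are not reported here.

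The 9 genes and all lists were chosen with earlier results of these data known. Besides the 9 genes, the text names genes past 2-fold in each list, up to 4 others with large differences, markers and the neighbours of Scimp. Blnk, Lcp2, Grb2 and Ptprc lie outside this rule and were named for their roles after their values were seen. Zap70 also lies outside it, was named for its bound and was not checked under the other settings. Alternatives were the scaling, background correction (normexp with an offset of 50 on median pixels, since no mean was given), the authors' values, probe rules, flagged spots, filters and a 1.5-fold threshold. Scripts were tested on simulated data. R 4.3.3, limma 3.58.1, Python 3.11.15, numpy 2.4.6 and pandas 2.3.3 were used.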

Additional observations from a re-analysis of the deposited data

How the results depend on the processing

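Scimp and Fgr stayed the only members at least 2-fold higher in every setting tried. The difference of Scimp, 4.59, became 4.80 with median scaling, 4.91 with spike-in scaling and 3.76 with normexp. Members at least 2-fold lower went from 0 to 1 (Lax1, which did not count as measured on either array) with no filter and no bounds. Among all genes the 564 higher and 883 lower became 827 and 564 with median scaling, 801 and 532 with quantile normalization, 693 and 632 with cyclic loess, 675 and 709 without scaling, 1023 and 451 with spike-in scaling, 297 and 268 with normexp, 848 and 1645 with the authors' values taken without bounds, 363 and 270 over genes measured on both arrays, 1389 and 4075 with no filter, and 1206 and 2164 at 1.5-fold. The cause of these shifts was not tested. The median of all genes went to 0.20 with median scaling and to 0.31 with spike-in scaling on 8 probes, and the differences of Lat, Lat2, Lime1 and Lyn are of about that size. Of 82 genes checked singly (the 6 measured members, the neighbours of Scimp, markers, and listed genes past 2-fold or singled out), 63 kept their sign in every setting and 19 did not, among them Lat, Lime1, Csf1r, Tyrobp, Fcer1g and Syk. Of those past 2-fold, 0 changed sign. No paired analysis was possible because only 1 array was run per condition. Signal over background limits Lax1, Pag1 and Sit1, which may have changed unseen.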
